A study of Mus musculus with 55 samples.

Results

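Smc3 is one of the SMC proteins of the cohesin ring. Cohesin holds sister chromatids together after DNA replication and extrudes chromatin loops in interphase. The DNA-binding protein CTCF halts it in an orientation-dependent way, so in most tissues the sharpest cohesin peaks stand at CTCF sites, while the loader Nipbl and active promoters mark places where it is loaded or travels through. In liver, cohesin peaks without CTCF have been described at promoters and enhancers of highly transcribed genes.

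The regions described here are all peaks of the 2 Smc3 ChIP-seq lists, 1 per group, which together hold 34660 of the 173819 peaks and islands of the whole series. The untreated WT list had 13045 peaks and the Setd8-LKO + TCPOBOP list 21615. The livers came from male C57Bl6 mice 45 to 50 days old, with 3 Smc3 libraries from untreated WT and 2 from Setd8-LKO. Setd8 (gene symbol Kmt5a) is the enzyme that places the single methyl group on lysine 20 of histone H4. The Setd8-LKO mice carried lox-flanked Setd8 alleles and the Alb-Cre transgene, and the study describes the inactivation as specific to hepatocytes. Whether each of the other cell types of the liver kept the gene was not tested here. They received a single intraperitoneal dose of 3 mg/kg TCPOBOP, a mitogen that acts through the nuclear receptor CAR, 24 h before the livers were taken. Genotype and treatment therefore changed together, and their parts in any difference between the lists cannot be told apart. The ChIP-seq was made from whole liver tissue, in which a change in cell types and a change within a cell type cannot be told apart either. In TCPOBOP-treated Setd8-LKO livers the study reports that most hepatocytes were lost and small mononuclear cells enriched. It also reports that the remaining hepatocytes had become hyperploid. The part of these changes in the lists was not tested.

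Each list was a single call set with no value per library, so the lists were compared by counts and shares. The exact (Clopper-Pearson) 95% intervals given with shares cover counting error only and say nothing of the spread between livers. Column 7 of the lists is the fold enrichment at the summit over the local background as the peak caller MACS2 gave it. The peak lists do not give the read depth behind them, though per the study's methods libraries were reduced to the size of the smallest, and the values are compared mainly by rank within a list. Peaks were sorted as in the study's Constant, Loss and Gain scheme. A kept peak shared 1 bp or more with a peak of the other list, a lost peak was found in untreated WT alone, and a gained peak in Setd8-LKO + TCPOBOP alone. On this basis 5549 untreated WT peaks were kept and 7496 lost, while 5187 Setd8-LKO peaks were kept and 16428 gained. With the lists cut to an equal 13045 peaks from the top by -log10 p, 4357 were kept (33.4%), 8688 lost and 9045 gained.

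The classes differed in the sequence under their summits, and 5 windows of 201 bp centred on a summit (mm10, plus strand, read from the reference genome) show the main types. The strongest kept untreated WT peak with an exact CTCF core lay between genes 7927 bp from the start of Eif4b, and the strongest lost one in an intron of Cys1. In both, capitals mark the core of the CTCF motif, which reads along the plus strand in the Cys1 window and along the minus strand in the Eif4b window:
kept, Eif4b side, chr15:102065746-102065946: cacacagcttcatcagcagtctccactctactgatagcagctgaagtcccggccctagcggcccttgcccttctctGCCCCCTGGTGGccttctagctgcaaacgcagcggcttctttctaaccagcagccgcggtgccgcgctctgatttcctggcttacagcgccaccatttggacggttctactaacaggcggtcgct
lost, Cys1 intron, chr12:24675504-24675704: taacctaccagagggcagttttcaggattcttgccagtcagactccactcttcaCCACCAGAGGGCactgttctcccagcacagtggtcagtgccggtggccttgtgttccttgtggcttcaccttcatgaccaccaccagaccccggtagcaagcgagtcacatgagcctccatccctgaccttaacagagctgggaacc

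The strongest gained peak at a promoter stood 55 bp from the start of Gprc5b, an orphan G-protein-coupled receptor, and its window held 29 CpG dinucleotides, which are in capitals. The other 2 windows show gained peaks away from promoters. One is the strongest with a long alternating run over its summit, in an intron of Rapgef4, with the run in capitals. The other is the strongest of those lying almost wholly in annotated repeats and holding the letters AAGATGGCG (capitals), which the transcription factor YY1 is known to bind, in an intron of Acnat1:
gained, Gprc5b promoter, chr7:118995056-118995256: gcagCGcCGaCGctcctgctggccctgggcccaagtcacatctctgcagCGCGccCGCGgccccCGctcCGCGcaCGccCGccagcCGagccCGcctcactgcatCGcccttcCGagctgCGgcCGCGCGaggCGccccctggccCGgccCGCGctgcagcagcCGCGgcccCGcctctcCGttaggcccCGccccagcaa
gained, Rapgef4 intron, chr2:72184809-72185009: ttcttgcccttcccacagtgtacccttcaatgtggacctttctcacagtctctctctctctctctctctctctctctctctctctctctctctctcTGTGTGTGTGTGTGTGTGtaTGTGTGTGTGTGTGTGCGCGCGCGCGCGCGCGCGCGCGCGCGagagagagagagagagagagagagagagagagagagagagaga
gained, Acnat1 intron, chr4:49466555-49466755: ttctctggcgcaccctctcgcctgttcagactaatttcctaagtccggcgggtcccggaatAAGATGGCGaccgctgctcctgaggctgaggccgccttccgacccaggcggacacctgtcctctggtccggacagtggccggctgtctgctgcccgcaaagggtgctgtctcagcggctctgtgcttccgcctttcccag

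The CTCF core, a 12-letter consensus searched on both strands with 1 mismatch allowed, set lost and gained peaks far apart. It was found within 100 bp of the summit in 68.5% of lost peaks (5136 of 7495 on the assembled chromosomes, interval 67.5 to 69.6) and in 40.2% of kept untreated WT peaks. Of gained peaks 5.03% held it (826 of 16412, interval 4.7 to 5.38). Windows moved 2000 bp away held it in 2.27% to 2.94% of cases in the 4 classes, and the start sites of protein-coding genes in 3.34%. Gained peaks at promoters, at 3.77%, were therefore near the share of promoters in general.

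Where the core was present, the summit tended to one side of it. Read along the motif, the summit lay on the 3′ side in 61.5% of lost peaks with a core (interval 60.2 to 62.9), 60.5% of kept untreated WT peaks and 60.4% of kept Setd8-LKO peaks. In gained peaks it was 51.9% (interval 48.5 to 55.4). The summit stood within 20 bp of the core's centre in 47.2% of lost and 48.4% of kept untreated WT peaks with a core, against 33.2% of kept Setd8-LKO and 25.3% of gained ones.

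Lost peaks were mostly far from genes' starts and gained peaks mostly at them. A promoter here is the 1000 bp on either side of an annotated transcript start (GENCODE M21). Among lost peaks 11.4% had the summit at a promoter (854 of 7495), 41.1% in an intron and 41.4% between genes, and the median distance to the nearest start was 6859 bp. Among kept untreated WT peaks 63.9% were at promoters (3548 of 5549), with a median distance of 370 bp. Gained peaks stood at promoters in 66.6% of cases (10927 of 16412), with a median distance of 234 bp, and in exons away from promoters in 10.9%.

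Whether an untreated WT peak was kept went with both place and motif. Of promoter peaks without a CTCF core, 88.6% were kept (2610 of 2947, interval 87.4 to 89.7), and of promoter peaks with a core 64.5%. Away from promoters the kept shares were 21.8% with a core (1291 of 5910) and 26% without (710 of 2732). With the 1 bp overlap rule, place thus set these shares further apart than the motif did. The median length ratio of kept pairs, Setd8-LKO over untreated WT, was 3 at promoters and 1.51 at distal sites. When an overlap had to cover 50% of both peaks, most promoter peaks counted as lost. The gap between promoter and distal shares was then much smaller.

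Peak strength divided the lists in a way that was not a straight line. Each list was cut into 10 groups of equal size by fold enrichment. In untreated WT the kept share was 47.8% in the lowest group, 34.1% in both groups 6 and 7 and 62.3% in the highest. The lowest group was also the richest in promoters (47.2%) and the poorest in CTCF cores (36.6%), and the highest group held 30% and 73.1%. In Setd8-LKO the kept share stayed between 12.5% and 35.7% in the lower 9 groups and was 81.1% in the highest, where 96.1% of peaks overlapped a CTCF peak of the same group.

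**Figure D1:**
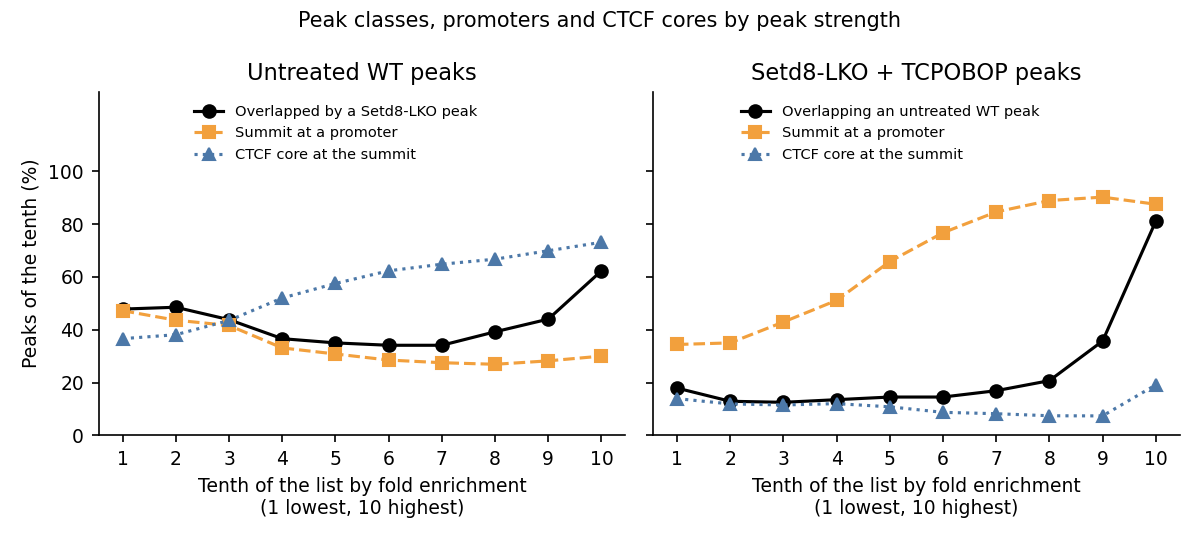
Share of Smc3 peaks (y axis, percent of the peaks of a group) in 10 groups of equal size by fold enrichment (x axis, 1 lowest and 10 highest), for untreated WT on the left and Setd8-LKO + TCPOBOP on the right. Black circles are peaks overlapped by the other list, orange squares summits at a promoter and blue triangles summits with a CTCF core; the black line turns up at both ends in untreated WT (47.8%, 34.1% and 62.3%) and rises in the last group in Setd8-LKO (to 81.1%).

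The 5 strongest kept peaks of untreated WT were at the promoters of Snx18 (fold enrichment 47.1), Gins4 (45), Alpl (40) and the noncoding Gm13996 (39.3) and at the Eif4b-side site printed above (41.1). The 5 strongest lost ones were all away from promoters, in introns of Cys1 (36.3), Trpm3 (35.1) and Cfap45 (34.8), 1820 bp from the start of Rfx7 (34.3) and 8961 bp from that of the class I histocompatibility gene H2-D1 (35.5). All 5 held the CTCF core with at most 1 mismatch. In Setd8-LKO the 5 strongest kept peaks had fold enrichments of 169.4 to 170.9 and belonged to Hes1, a Notch target, Adora2a, Palm, Lrfn2 and Fzd8. The 5 strongest gained ones were at Skor2 (146.6), Gprc5b (146.3), Ubtf (137.3), Fam92a (134.2) and Irf2 (132.1). None of those gained peaks overlapped a CTCF peak of untreated WT, all 5 overlapped one of Setd8-LKO, and none held the CTCF core.

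At kept sites the ratio of the deposited fold enrichments, Setd8-LKO over untreated WT, depended on place. At promoters its median was 7, and the median peak stood at percentile 39.4 of the untreated WT list and 89.5 of the Setd8-LKO list. At distal sites with a CTCF core the median ratio was 1.26 and the percentiles 75 and 37, and 38.2% of those 1291 pairs had a lower fold enrichment in Setd8-LKO. The lists differ in length and in the other peaks they hold, so the percentiles describe a peak's place in its list and not a change at the site. Over all 5549 pairs the summits were a median of 75 bp apart, and 73.6% of untreated WT peaks lay wholly inside their Setd8-LKO partner. The rank correlation of the paired fold enrichments was -0.11 over these pairs, which share their 2 lists, and is given as a description.

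Setd8-LKO peaks were broader in every class. Kept peaks had a median length of 353 bp in untreated WT and 874 bp in Setd8-LKO, lost peaks 277 bp and gained peaks 618 bp. The shortest peaks were 201 bp in one list and 300 bp in the other, so the caller's smallest length differed as well, and its part in the other lengths was not tested. Peaks over 1000 bp made up 0.866% of the untreated WT list and 25.2% of the Setd8-LKO list, and the lists covered 4.48 and 17.1 Mb. In 316 cases a single Setd8-LKO peak covered 2 or more untreated WT peaks, at most 5.

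In untreated WT the 3 longest kept peaks were 3507 bp near Osgin1, 3155 bp at Cebpa, a hepatocyte transcription factor, and 3099 bp at Necab2, the neighbour of Osgin1. The 3 longest lost peaks were 2222 bp near Ahsg, which encodes the plasma protein fetuin-A, 1638 bp at Sphk2 and 1295 bp at Ndufs7. In Setd8-LKO the longest kept peaks lay at the transcriptional regulators Mn1 (5532 bp), Bcor (5517 bp) and Zmiz1 (4917 bp). The longest gained ones lay at Plec (5592 bp), a cytoskeletal linker, Brd2 (4898 bp), which binds acetylated histones, and Ubtf (4362 bp), a factor of ribosomal RNA transcription.

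Chromosome X stood apart from the autosomes. It held 88 Smc3 peaks in untreated WT and 430 in Setd8-LKO, a ratio of 4.89, whereas the 19 autosomes ranged from 1.42 (chromosome 19) to 1.87 (chromosome 17). Per Mb the X had 0.515 peaks in untreated WT and 2.51 in Setd8-LKO, against autosome medians of 5.4 and 9.2. Chromosome Y had 0 peaks in both lists. Per 100 protein-coding genes the untreated WT list had 9.28 peaks on the X and 47.7 to 76.7 on the autosomes. Of the X peaks in Setd8-LKO 90.2% were gained, against 70.8% to 79% on the autosomes.

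Among the peaks called in untreated WT the median fold enrichment was 13.6 on the X and 13 on the autosomes, which says nothing of X sites below the caller's threshold. In Setd8-LKO the medians were 23.4 and 29.8, and 76.7% of X peaks were at promoters against 65.5%. With equal list lengths the X still held 88 and 226 peaks, a ratio of 2.57, while the autosomes had a ratio of 0.989. In the CTCF lists the X ratio was 7.14 (21 and 150 peaks) and the autosome ratio 3.56. The H3K27ac lists, which mark active promoters and enhancers, had 466 and 432 X peaks, and the ATAC-seq lists of accessible regions 401 and 399. In untreated WT the X held 1.67% of H3K27ac, 1.47% of ATAC-seq and 0.675% of Smc3 peaks. All mice were male, and the part of their single X in these counts was not tested.

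**Figure D2:**
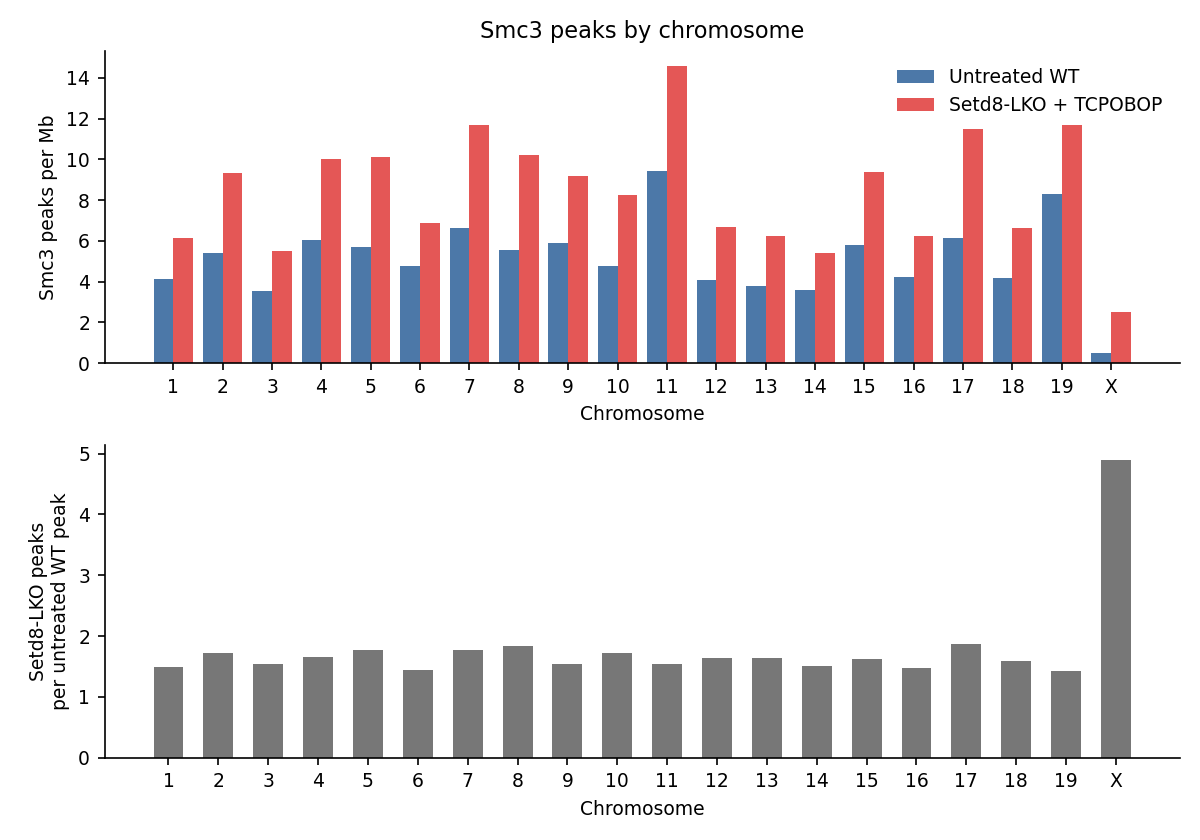
Smc3 peaks per Mb of each chromosome (upper panel, untreated WT in blue and Setd8-LKO + TCPOBOP in red) and the number of Setd8-LKO peaks per untreated WT peak (lower panel). The ratio is 1.42 to 1.87 on the autosomes and 4.89 on the X, which lies below every autosome in density in both lists; the Y, with no peak in either list, is not drawn.

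Across the autosomes peak density followed gene density, with rank correlations of 0.88 in untreated WT and 0.86 in Setd8-LKO over 19 chromosomes. The points of each correlation come from a single list, so it is a description. Chromosome 11 was the densest in both lists, with 9.43 and 14.6 peaks per Mb. Chromosome 3 was the sparsest autosome in untreated WT (3.56) and chromosome 14 in Setd8-LKO (5.43).

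Most 1 Mb bins with a lost peak also had a gained one, but most bins had a gained one in any case. Of 2645 bins of 1 Mb, 1602 had a lost peak and 2173 a gained one and 1548 had both, so that 54 bins with a lost peak had no gained one and 625 with a gained peak no lost one. Of these 625 bins, 472 had no untreated WT peak at all. The bin with the most gained peaks, at 80 Mb on chromosome 10, had 111 of them beside 18 lost and 20 kept. Next summits in the same list were a median of 49.7 kb apart in untreated WT and 32.6 kb in Setd8-LKO. A gained summit was a median of 27.1 kb from the nearest untreated WT summit, and a lost one 19 kb from the nearest Setd8-LKO summit.

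Gained and kept summits lay in DNA richer in CpG than lost summits. The 201 bp window held a median of 3 CpG dinucleotides at lost summits, 13 at kept untreated WT summits, 17 at kept Setd8-LKO summits and 18 at gained ones, against 10 at the starts of all protein-coding genes. Lost promoter peaks had a median of 4 and gained promoter peaks 20. Away from promoters the medians were 3 at lost summits, 7 at kept summits of either list and 11 at gained ones. CpG density was highest at the summit and fell away on both sides in kept and gained peaks, with a far smaller rise around lost ones.

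**Figure D3:**
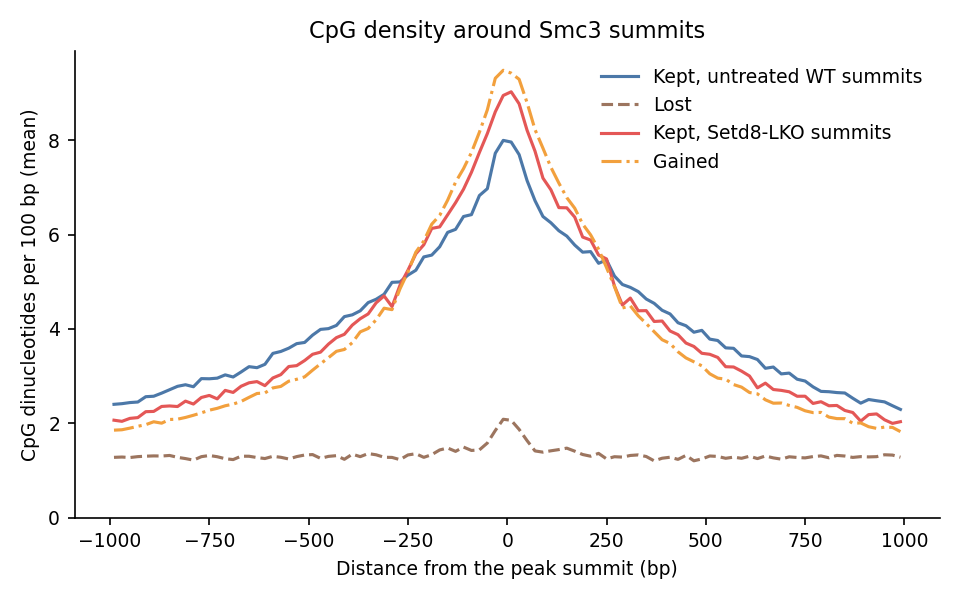
Mean number of CpG dinucleotides per 100 bp (y axis) by distance from the summit (x axis, bp) for kept peaks at their untreated WT and Setd8-LKO summits, lost peaks and gained peaks. Kept and gained peaks are centred on a CpG maximum, and lost peaks have only a small rise at the summit.

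The CpG content of a promoter also sorted the genes that had Smc3 in Setd8-LKO. Protein-coding genes were put into 5 groups of equal size by the CpG dinucleotides at the start. In the group with the fewest (0 to 2), 4.24% had an untreated WT Smc3 peak at the promoter and 11% a Setd8-LKO one. In the richest group (21 to 47) the shares were 30.5% and 96.2%. H3K27ac peaks followed the same order, from 13.5% to 95.3% in Setd8-LKO. Among promoters with an H3K27ac peak in Setd8-LKO, a Setd8-LKO Smc3 peak was present in 68.2% of the poorest group and 99.1% of the richest. An untreated WT Smc3 peak was present in 24.5% and 31.7% of these promoters, with 22.7% in the middle group. Among promoters without that H3K27ac peak the Setd8-LKO shares were 2.11% and 35.9%, and the group with 14 to 21 CpG dinucleotides had 48.3%. Over all genes 16.6% had an untreated WT Smc3 peak at the promoter, 57.4% a Setd8-LKO one, and 58.2% an H3K27ac peak in Setd8-LKO.

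**Figure D4:**
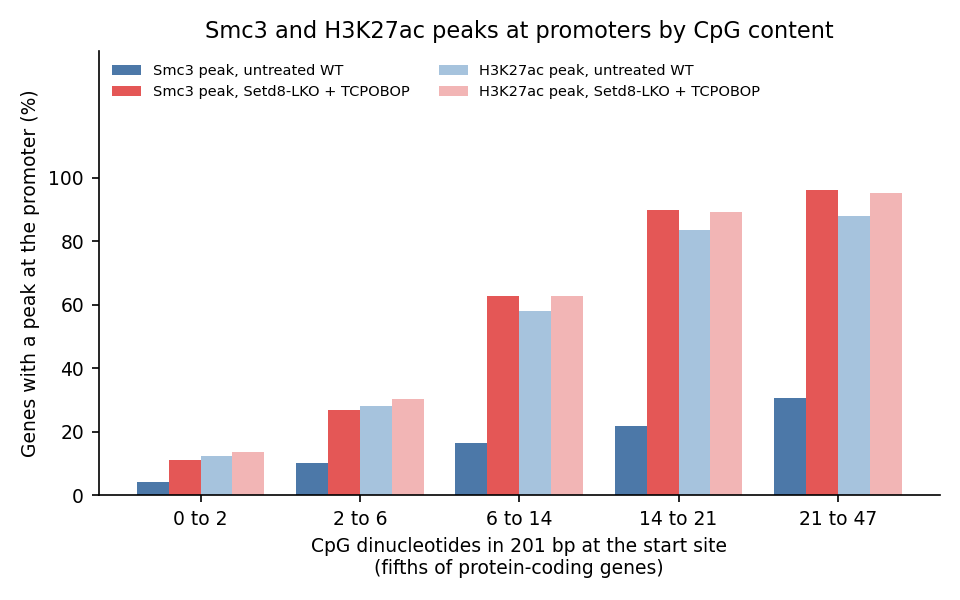
Share of protein-coding genes with a peak at the promoter (y axis, percent) in 5 equal groups by the number of CpG dinucleotides in 201 bp at the start site (x axis), for Smc3 (dark bars) and H3K27ac (pale bars) in untreated WT (blue) and Setd8-LKO + TCPOBOP (red). Smc3 in Setd8-LKO climbs from 11% to 96.2%, close to H3K27ac in the same group, and in untreated WT from 4.24% to 30.5%.

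Other short motifs were also searched. The letters GGGCGG, bound by SP and KLF factors, were near 57.2% of gained promoter summits, 57.5% of kept Setd8-LKO promoter summits, 6.44% of lost promoter summits and 40% of all starts. The letters CCAAT, bound by NF-Y, were near 11.1% of gained promoter summits and 28.2% of all starts. TGTTTAC, bound by the liver factors of the FOXA family, was near 2.24% of lost and 0.89% of gained summits, against 2.72% and 2.57% of windows moved 2000 bp away, and 1.57% of all starts. The letters CAAAGTCCA of HNF4 were near 0.52% of lost and 0.104% of gained summits, and 0.292% of starts. A match is only a match of letters, and no binding of these factors was measured.

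Gained peaks away from promoters held simple repeats such as the one printed from Rapgef4. Runs of 8 or more alternating CA or CG units, read on either strand, were in 14.2% of their windows (778 of 5485, interval 13.3 to 15.1), 0.527% of lost distal windows, 2.19% of kept Setd8-LKO distal windows and 1.01% of starts. The same windows moved 2000 bp away held them in 2.66% of cases. Runs of GA alone were in 7.55% of gained distal windows, 1.04% of the moved ones and 0.0452% of lost distal ones. The letters GCGCNNGCGC of NRF1, which a CG run also spells, were in 13.4% of gained distal windows and 7.14% of starts, and in 76.9% of those with an alternating run. The gained distal peaks with an alternating run were short, with a median of 359 bp against 443 bp for the other gained distal peaks. Of those with a run 26.7% overlapped a CTCF peak and 2.83% an ATAC-seq peak of Setd8-LKO, against 45.5% and 9.26% of the others. The H3K27ac shares were alike, at 38.8% and 38.2%.

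A further 429 gained windows, or 2.61%, lay over 90% within annotated repeats. Of these 32.2% held the YY1 letters AAGATGGCG, against 1.78% of all gained windows and 1.81% of starts, and 105 held the 16-base word AATTAGTCTGAACAGG, whose reverse complement is in the Acnat1 window printed above. That word was in 114 gained windows in all, in 1 kept Setd8-LKO window and in no untreated WT window. These peaks were weak, with a median fold enrichment of 12.4. Of their windows 35.7% had a peak overlapping an H4K20me3 island and 32.9% one overlapping a Lamin A/C island of Setd8-LKO, which mark heterochromatin and contact with the nuclear lamina. For all gained peaks those shares were 4.6% and 5.09%, and the islands cover 23.2% and 27.8% of the genome. Of the 63 lost windows that lay over 90% in repeats, 71.4% held the CTCF core, near the 68.5% of all lost windows. The word AACCACATGGTGGCTC was in 23 of these 63. Reads in repeats are placed with less certainty than elsewhere, and their part in these peaks was not tested.

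CTCF peaks went with Smc3 peaks in different ways in the 2 groups. The untreated WT CTCF list had 5838 peaks and overlapped 37% of kept and 30.9% of lost Smc3 peaks. The Setd8-LKO CTCF list had 20905 peaks and overlapped 88.2% of kept Setd8-LKO and 52.5% of gained Smc3 peaks (8619 of 16428). Of the 6259 gained promoter peaks with such a CTCF peak, 4.65% held the core, against 52.2% of kept promoter peaks with an untreated WT CTCF peak. Of lost peaks 21% still overlapped a CTCF peak of Setd8-LKO, among them those near H2-D1, Trpm3, Cfap45 and Rfx7.

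Activity marks differed by class and by place. H3K27ac peaks of untreated WT overlapped 62.2% of kept and 6.1% of lost Smc3 peaks, and those of Setd8-LKO 68.8% of gained ones. At promoters the share was 83.7% for kept untreated WT peaks, 15.8% for lost and 84.2% for gained ones. Of gained peaks 55.8% overlapped an H3K27ac peak that was already in the untreated WT list. ATAC-seq peaks of the same group were at 38.2% of gained promoter peaks and 8.35% of gained distal ones. Of gained distal peaks 35.8% had no CTCF, H3K27ac or ATAC-seq peak of the same group, as did 54.1% of lost distal ones.

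Genes were next sorted by the Smc3 peaks at their promoters. Of 21951 protein-coding genes, 14.6% had a kept, 2.6% a lost and 45.5% a gained peak there, and these are the shares against which each list is read. The lists were set with earlier results of these data known, and each is described by its counts alone. A peak is called present or not by its list, with no value per liver.

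Cohesin's own genes were mostly covered in Setd8-LKO. Of 18 genes of rings, loaders and regulators, 7 had a kept and 8 a gained promoter peak. The kept ones were at Stag1 (fold enrichment 20.8 in untreated WT and 144 in Setd8-LKO) and Stag2 (13.6 and 90.5), which bind the ring, Pds5a (8.4 and 114.2) and Pds5b (10.3 and 94), which regulate its release, the loader Nipbl (9.7 and 93.3), the acetyltransferase Esco1 (23.7 and 136.1) and Ctcf (14.9 and 121.4). Gained peaks were at Smc3 itself (60.3), Smc1a (9.25) and Rad21 (69.8), the ring's other subunits, at the loader partner Mau2 (74.9), at Wapl (89.9), which opens the ring, and at Ctcfl (21.4), Smc1b (13) and Stag3 (29.8), which are known from the germ line. Hdac8, Rec8 and Rad21l had no Smc3 peak at the promoter.

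Of 13 genes that act on sister chromatid cohesion in the cell cycle, 10 had a gained peak, 2 a kept one and 1 a lost one. Gained peaks were at the acetyltransferase Esco2 (12.7), Cdca5 (29), which protects bound cohesin, Sgo2a (58.1), Espl1 (12.6), whose product separase cuts the ring, the kinases Plk1 (20.2), Bub1 (19.1) and Aurkb (15.8), and Ddx11 (35.9), Chtf18 (10.1) and Dscc1 (35). Espl1 had lost a different peak of 9.8 in the same promoter. Kept peaks were at Sgo1 (14.7 and 54.1) and Haspin (19.2 and 76.6), and Pttg1 had none.

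Cell division and replication genes were among those most often covered by gained peaks. Of 29 genes of G2/M and mitosis 22 had one, among them Ncapg (53.5), Smc2 (45.7), Cdc20 (44.5) and Mybl2 (43.8), and only Aurka had a kept peak. Of 32 replication genes 29 had one, among them E2f8 (113.3), E2f1 (53.5) and Rfc4 (48.4). Mcm5, Rfc3 and Tk1 each had a lost peak as well. Of 24 p53 and DNA damage genes 17 had a gained peak, led by Zmat3 (95.4), Ei24 (79.5), Sesn2 (73.1) and Mdm2 (65.2), and 6 a kept one, among them Bbc3 (18.1 and 142.5) and Gadd45a (28.3 and 129.2). Broadly expressed genes did much the same, with gained peaks at 19 of 26 ribosomal protein genes and 19 of 25 housekeeping genes, and kept peaks at 5 and 4. Of 18 genes of the lamina, nuclear envelope and H4K20 methylation 14 had a gained peak, among them Kmt5b (107.6), Lbr (87.9) and Nup153 (69.2).

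Developmental genes were covered too. Of 22 Hox genes, which pattern the embryo, 19 had a gained peak and 1, Hoxa7, a kept one. Among them were Hoxa5 (81) and Hoxb4 (42.2), and 14 of the 22 had an H3K27ac peak at the promoter in Setd8-LKO against 5 in untreated WT. Of 24 fetal liver and imprinted genes 17 had a gained peak, among them Cd24a (82.7), Igf2r (77) and Mest (67.9).

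Lists of hepatocyte function varied among themselves. Of 28 plasma protein genes 5 had a kept, 3 a lost and 5 a gained promoter peak, and 18 had none in either list, although 28 carried H3K27ac at the promoter in untreated WT and 27 in Setd8-LKO. The gained ones were Rbp4 (80.8), Fgg (15), Serpina1a (13), Hp (9.25) and C3, which had a kept peak as well, and the lost ones Alb (8), Apob and Ahsg, of which the last 2 had a kept peak too. Of 33 genes of the CAR and xenobiotic response, the pathway that TCPOBOP switches on, 2 had a kept, 2 a lost and 5 a gained peak. The gained ones were Alas1 (103.5), Por (78.2), Cyp1a2 (15.6), Abcc3 (13.6) and Abcc2 (10.8), and the lost ones Cyp1a1 (9.6) and Sult1d1 (22.3). Of 21 genes of amino acid and urea cycle metabolism 11 had a gained and 2 a lost peak, led by Gldc (83.6) and Ass1 (78.4). Of 22 lipid and bile acid genes 7 had a kept, 3 a lost and 7 a gained peak, the latter among others at Cpt1a (64.8), Hmgcs1 (58.2) and Acadm (54.6). Hepatocyte transcription factors had a kept peak at 12 of 25, led by Cebpb (22.2 and 154.7) and Cebpa (16.8 and 152.7), and a gained peak at 14.

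Markers of cell types were counted in the same way. Of 10 hepatocyte markers 3 had a lost promoter peak (Alb, Fabp1 and Cyp2e1), 2 a gained one (Ass1 and Serpina1a) and none a kept one, while 10 carried H3K27ac there in untreated WT and 8 in Setd8-LKO. None of 10 Kupffer cell and macrophage markers and none of 10 lymphocyte and neutrophil markers had an Smc3 peak at the promoter in either list, and none carried an H3K27ac peak there in either group. Endothelial markers had 1 kept, 1 lost and 1 gained of 10 and stellate cell and fibroblast markers 1, 1 and 3 of 10. Cholangiocyte markers had 2 kept and 5 gained of 10, among them gained peaks at Epcam (46.8), Cftr (18.5) and Krt7 (11.9). In another list, of 26 senescence factors and cell cycle inhibitors, 6 had a kept and 7 a gained peak, led by Igfbp7 (33.5 and 167.4) and Cdkn2c (108.7).

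**Figure D5:**
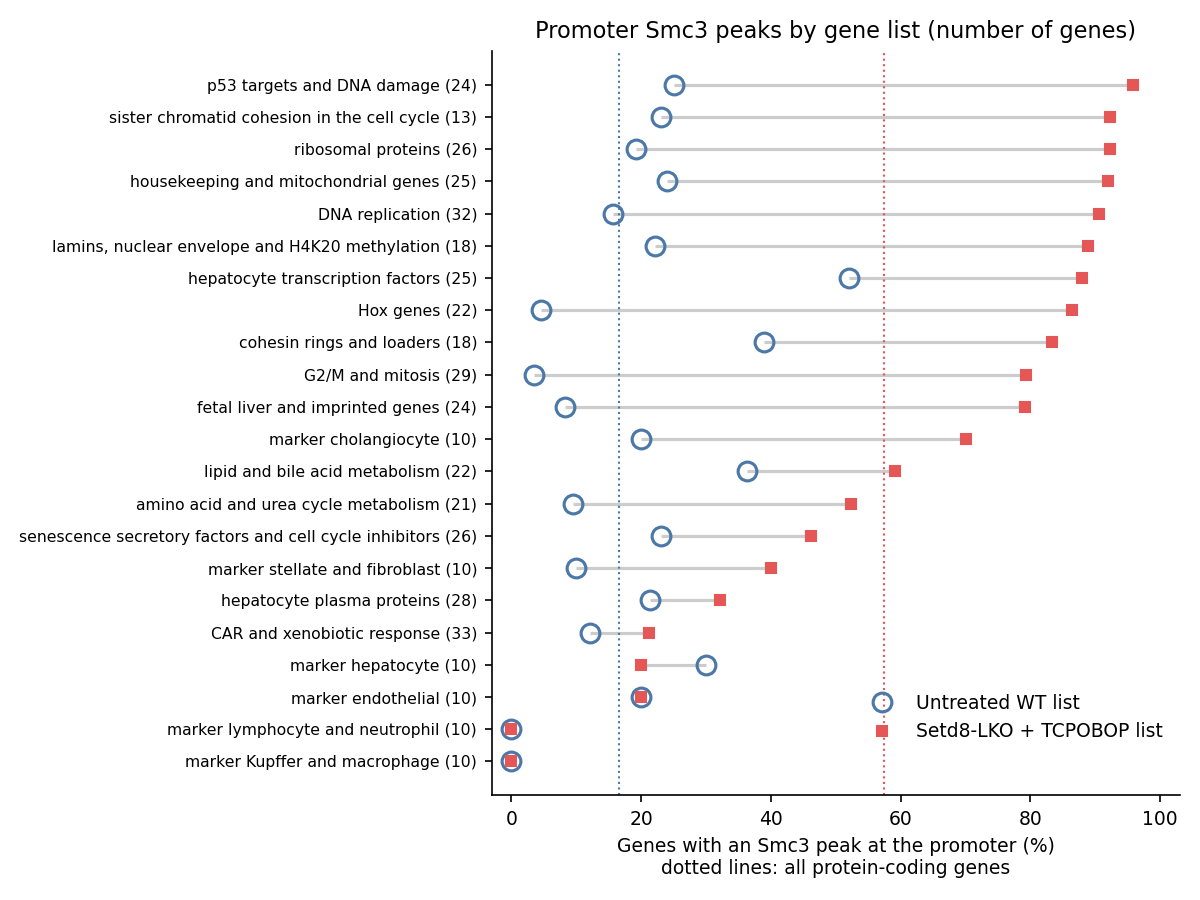
Share of the genes of each list with an Smc3 peak at the promoter (x axis, percent) in the untreated WT list (open blue circles) and the Setd8-LKO + TCPOBOP list (red squares), with the number of genes in brackets. The dotted lines are all protein-coding genes (16.6% and 57.4%); the p53, cohesion, ribosomal and replication lists lie far to the right of the red line, and the plasma protein, CAR and hepatocyte marker lists to the left of it.

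Single regions show how lost and gained peaks alternate. Between Naaa and Shroom3 on chromosome 5 the untreated WT list had 14 peaks, of which 4 were kept and 10 lost, and the Setd8-LKO list had 14, of which 10 were gained. The 4 kept peaks were at the promoters of Sdad1, Nup54, Scarb2 and Shroom3, and none of the lost ones was at a promoter. Lost peaks ran through introns of Art3 at 4912, 1923 and 3569 bp from its nearest start and had fold enrichments of 13.8, 6.83 and 16. Gained peaks were at the promoters of Naaa (55.8), Stbd1 (68.5), Ccdc158 (34.3) and, with 21.4 and 65.1, at 2 internal starts of Shroom3. The rest of the gained peaks were away from promoters, in an exon of Shroom3 (38.9), in introns (14.5, 18.5 and 19.4) and between genes (14.2).

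At the imprinted pair H19 and Igf2 on chromosome 7, untreated WT had 2 weak peaks, of fold enrichment 7.17 and 7.37, that stood 2172 and 2680 bp upstream of the H19 start and were absent from the Setd8-LKO list. The imprinting control region of the pair, which is known to hold CTCF sites, lies upstream of H19, but neither window held the CTCF core with at most 1 mismatch. Setd8-LKO gained 5 peaks around Igf2 with fold enrichments of 7.6, 22, 29.5, 22.6 and 15.3. A peak between the genes was kept (13.4 and 11.3).

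RNA-seq of 5 untreated WT and 4 Setd8-LKO + TCPOBOP livers gave the RNA of genes near these peaks. The deposited table holds 3900 genes that the study selected as changed on these same libraries, so the directions below are no independent evidence and a gene outside the table was not analysed here. In the listed genes the raw counts summed to 11238950 to 12780869 per untreated WT library and 5734065 to 8231255 per Setd8-LKO library. Kmt5a, the targeted gene, had 613, 567, 761, 563 and 715 normalized counts in untreated WT and 1341, 1465, 1338 and 1313 in the libraries labelled Setd8-LKO. It was higher in those (log2 fold change 1.08 ± 0.14 SE, edgeR quasi-likelihood test, adjusted p = 0.000452), with no overlap, but not with the DESeq2 size factors described below (0.27, adjusted p = 1). Counts summed over all exons cannot tell whether the deleted exon was present, and the highest gained Smc3 peak at the promoter of Kmt5a had a fold enrichment of 63.6.

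Listed genes with a gained promoter peak were more often higher than lower in Setd8-LKO + TCPOBOP, and more so than the table as a whole. Genes were called at an adjusted p below 0.05 and a log2 fold change of at least 1 in either direction. Of all 3726 genes tested 50.5% were higher and 34.6% lower. Of the 9982 genes with a gained promoter peak 1579 were listed and 1526 tested, of which 935 were higher (61.3%) and 400 lower (26.2%), with a median log2 fold change of 1.34 against 1.16 over all genes tested. Of 511 tested genes with a kept promoter peak 244 were higher and 214 lower. Protein-coding genes with no Smc3 peak at the promoter that were also not the nearest gene to a lost peak were higher in 43.4% and lower in 37.8% of 682 tested.

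The split depended on the scaling of the libraries. When the authors' factors were replaced by size factors that DESeq2 derives from the table, the log2 fold changes shifted by -0.82 at the median, and 388 gained-promoter genes were higher and 435 lower, beside 766 and 1464 of all genes. With edgeR's TMM factors from the same table the shift was -0.01, and 1939 of all genes were higher and 1315 lower. A rise smaller than the DESeq2 shift was thus a rise under some of these scalings and not under others.

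Genes nearest to a lost peak were split like the table. The 6420 lost peaks within 50 kb of a coding start had 4786 nearest genes, of which 930 were tested, and 493 were higher (53%) and 335 lower (36%), or 191 and 364 with DESeq2's size factors. Where such a gene had no gained promoter peak, 43% of 421 were higher and 45.6% lower. Where it had one, 61.3% of 509 were higher and 28.1% lower.

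The largest rises among genes with a gained promoter peak started from almost nothing. Lif, a cytokine, had 0 counts in all 5 untreated WT libraries and 53, 70, 14 and 46 normalized counts in Setd8-LKO, at least 69.6-fold higher against 3 counts over the group, with a gained peak of 89.6. Rbm24, an RNA-binding protein, had 2 counts in all in untreated WT and 291, 212, 75 and 276 normalized counts in Setd8-LKO, a ratio of 533.8 with a counting interval of 147.4 to 4413.0 (peak 41.6). The desmosome gene Pkp1 had 2 counts in all and then 141, 188, 89 and 222, a ratio of 400 with an interval of 110.4 to 3308.6 (peak 39.9). The calcium channel gene Cacna1b had 3 raw counts in all and then 122, 132, 45 and 99, a ratio of 124.4 with an interval of 42.3 to 605.1 (peak 21.8). Corin, a membrane protease, had 0, 4, 3, 2 and 7 normalized counts and then 436, 362, 214 and 398 (log2 fold change 6.79 ± 0.48 SE, edgeR adjusted p = 1.21e-05, peak 40.2). In all 5 genes the groups did not overlap, which the choice of the largest called rises makes likely in advance.

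The 5 largest falls among genes with a gained promoter peak were Moxd1, Cebpe, Ccl27a, Kcnk10 and Cyp7b1. Cyp7b1, an enzyme of the alternative bile acid pathway, had 8659, 7450, 5117, 8790 and 3802 normalized counts in untreated WT and 130, 125, 446 and 178 in Setd8-LKO. It fell by 4.94 on the log2 scale (SE 0.49, edgeR adjusted p = 8.71e-05), with a gained peak of 62.5. Cebpe had 114, 91, 73, 60 and 84 normalized counts and then 2, 0, 0 and 3 (log2 fold change -6.26 ± 0.57 SE, edgeR adjusted p = 5.14e-05, peak 10.5). The chemokine gene Ccl27a (-5.20 ± 0.31, adjusted p = 5.54e-06, peak 18.8) and the potassium channel gene Kcnk10 (-5.20 ± 0.55, adjusted p = 0.000137, peak 32.1) fell in the same edgeR fit. Their groups did not overlap, but both genes were picked for the size of the fall. Moxd1 had 491, 29, 2, 30 and 101 and then 2, 0, 0 and 0, so that the groups overlapped. Its edgeR adjusted p of 0.0221 became 0.0751 to 0.121 when any 1 Setd8-LKO library was left out.

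The 5 largest rises near lost peaks were Krt20, Cyp2b10, Cyp2b9, Ly6d and Pkp1. Cyp2b10, the standard CAR target, had 28, 25, 70, 28 and 106 normalized counts in untreated WT and 35767, 31592, 66038 and 55164 in Setd8-LKO (log2 fold change 9.84 ± 0.61 SE, edgeR adjusted p = 6.47e-06), and a lost peak of fold enrichment 12.1 stood 27616 bp from its start. Its neighbour Cyp2b9 had 1 to 3 and then 298 to 1414 (8.46 ± 0.61, adjusted p = 1.36e-05) with a lost peak 27880 bp away. These genes are close paralogs that can share reads. Ly6d had 8, 10, 30, 13 and 11 and then 5445, 4558, 2645 and 4654 (8.19 ± 0.42, adjusted p = 2.44e-06), with a lost peak of 19.6 at 2763 bp. Krt20, a keratin, had 0 counts in untreated WT and 176, 148, 12 and 145 normalized counts in Setd8-LKO, at least 182.9-fold higher, with a lost peak at 26867 bp. Pkp1, described above, was the other of these 5.

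The largest falls near lost peaks were Dpt, Cebpe, Serpina12, Ces4a and Etnppl. Etnppl, an enzyme of phospholipid breakdown, had 3027, 3546, 7269, 1296 and 9577 normalized counts in untreated WT and 153, 141, 182 and 128 in Setd8-LKO (log2 fold change -5.03 ± 0.57 SE, edgeR adjusted p = 0.000212), and a lost peak of 14.7 stood 7431 bp from its start. The matrix gene Dpt had 77, 15, 77, 81 and 108 and then 0, 2, 1 and 1 (-6.32 ± 0.72, adjusted p = 0.000217). Serpina12 varied widely in untreated WT, with 1208, 1379, 60, 806 and 78, and had 4, 8, 12 and 21 in Setd8-LKO (-5.97 ± 1.09, adjusted p = 0.00511). The esterase gene Ces4a had 40 to 185 and then 1 to 6 (-5.12 ± 0.64, adjusted p = 0.000393). No group overlap was found for these 5 genes, which were picked as the largest called falls.

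None of the 18 genes of cohesin rings and loaders was in the RNA table, while 12 of the 13 genes of sister chromatid cohesion were. Of the 11 tested, 10 were higher and Pttg1, which encodes the separase inhibitor securin, was lower, and 8 of the 10 had a gained promoter peak. Over all tested genes 50.5% were higher and 34.6% lower, and 935 of the 1881 higher ones had a gained promoter peak. Esco2 had 14, 11, 28, 22 and 33 normalized counts in untreated WT and 278, 356, 281 and 221 in Setd8-LKO (log2 fold change 3.71 ± 0.31 SE, edgeR adjusted p = 3.23e-05). Plk1 had 6, 5, 15, 11 and 13 and then 264, 228, 321 and 207 (4.60 ± 0.31, adjusted p = 1e-05). The other log2 fold changes were 4.57 for Sgo2a, 4.46 for Bub1, 4.04 for Sgo1, 3.82 for Espl1, 3.80 for Cdca5, 3.62 for Aurkb, 3.18 for Chtf18 and 1.37 for Haspin. Dscc1, at 0 to 3 and 5 to 23 normalized counts, was not tested for low counts. Pttg1 had 331, 423, 335, 344 and 346 and then 151, 113, 223 and 157 (-1.14 ± 0.20, adjusted p = 0.00454), and it alone of these 11 had no Smc3 peak at the promoter. Haspin's edgeR adjusted p of 0.0186 became 1 with DESeq2's size factors, 0.0662 with the run as a term and 0.0523, 0.0556 or 0.061 without untreated WT replicate 4, untreated WT replicate 3 or Setd8-LKO replicate 1.

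The lists described above by their peaks were in part also in the RNA table. Over all 3726 tested genes 50.5% were higher and 34.6% lower, so a call in either direction was the common outcome. In G2/M and mitosis 26 of 29 genes were tested and 26 higher, 20 of them with a gained promoter peak. Of all 1881 genes called higher, 935 were protein-coding genes with a gained promoter peak. In replication 14 were higher and 2 lower of 18 tested, in the p53 list 12 of 12 higher, in the CAR list 23 higher and 1 lower of 25 and in the fetal list 9 higher of 11. Hepatocyte lists went down, with 11 of 12 tested plasma protein genes lower and 1 higher, 5 of 5 transcription factors lower, 14 of 16 amino acid genes lower, and 7 of 9 lipid and bile acid genes lower and 2 higher. In senescence 9 of 10 were higher. Both of the 2 tested housekeeping genes and both of the 2 lamina and H4K20 genes were higher. No ribosomal protein or Hox gene was listed. With DESeq2's size factors the counts of higher genes became 21 in G2/M, 6 in replication, 7 in the p53 list, 13 in the CAR list, 7 in the fetal list, 6 in senescence and 9 in sister chromatid cohesion. Under that scaling none of the housekeeping and lamina genes was called, and all 16 amino acid genes were lower. Over all genes 766 were then higher and 1464 lower.

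Markers of cell types moved along with these groups, and their counts stand beside 50.5% higher and 34.6% lower over all tested genes. Of the hepatocyte markers 7 of 9 tested were lower, and their summed normalized counts were 1211193 to 2008132 in untreated WT and 500110 to 708063 in Setd8-LKO. Of cholangiocyte markers 6 of 7 tested were higher, with sums of 463 to 723 and 1696 to 7787, and of stellate cell and fibroblast markers 5 of 5, with sums of 2170 to 3200 and 5603 to 13312. Of 1 Kupffer cell marker, Marco, and 3 lymphocyte and neutrophil markers tested none was called, and no endothelial marker was listed. Marco had 73 to 272 normalized counts in untreated WT and 304 to 489 in Setd8-LKO (log2 fold change 1.35 ± 0.35 SE, edgeR adjusted p = 0.05). The sums of the 3 lymphocyte and neutrophil markers were 18 to 109 and 73 to 130. With DESeq2's size factors 9 hepatocyte markers and 1 lymphocyte or neutrophil marker were lower, and 4 cholangiocyte and 3 stellate markers higher. Their part in the results above was not tested.

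H19 and Igf2 RNA differed between livers of the same group. H19 had 6, 1, 16, 5 and 47 normalized counts in untreated WT and 5052, 4547, 74 and 310 in Setd8-LKO (log2 fold change 7.35 ± 1.32 SE, edgeR adjusted p = 0.00454). Igf2 had 4, 5, 9, 5 and 3 and then 764, 471, 10 and 26, and was not tested because of its low counts. Setd8-LKO replicates 1 and 2 were high for both genes and replicates 3 and 4 low, though still above every untreated WT library. The column headers assign the libraries to 2 runs. H19's log2 ratio of means was 3.77 in run A, which holds a single Setd8-LKO library, and 9.85 in run B.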

How the data were processed

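Smc3 was profiled by ChIP-seq in livers of untreated WT (3 libraries) and Setd8-LKO + TCPOBOP mice (2 libraries), with 2 inputs per group. Per the study's methods and the submitters' processing notes, the authors trimmed reads with Trimmomatic 0.39, aligned them to mm10 with HISAT2, removed duplicates and poorly mapped reads, reduced libraries to the smallest one and called peaks with MACS2 2.2.7.1. How replicates were combined is not given in the sources used here. The deposited lists give for each peak a fold enrichment (a ratio to local background) and a -log10 p, of which the smallest were 13.5 and 13.6. CTCF, H3K27ac and ATAC-seq lists (MACS2) and Lamin A/C and H4K20me3 islands (SICER), as deposited, served as positions only. The island score that the authors' SICER run gave was not used. Positions in the text count from 1.

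The RNA values are raw counts per gene and counts normalized by the authors with metaseqR. Normalized counts equalled raw counts times 1 factor per library (0.752 to 1.25) within 0.0635%. Columns of the authors' fold changes, p-values and FDR were not used, nor were 134 columns of values for other samples.

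Overlaps needed 1 bp, and all peaks entered. The 1 and 16 peaks on unplaced contigs were left out of place, motif and spacing counts. Genes were placed with GENCODE M21 (55450 genes), and sequences were read from the mm10 reference. All 446 genes of the lists matched, after older names of Sgo1, Sgo2a and Haspin that repeated them were dropped. Raw counts were tested with edgeR 4.0.16 (quasi-likelihood, the authors' factors, filterByExpr with a minimum count of 10) in R 4.3.3, and Benjamini-Hochberg adjustment ran over all 55450 annotated genes, with genes outside the table counted as not changed. Standard errors follow from the fold change and its F statistic. Overlap and motif steps found 1500 of 1500 shared peaks and 500 of 500 motifs planted in simulated lists, and the RNA step recovered 200 of 200 changed genes among 3739 with 0 others called. Nothing says whether ChIP-seq and RNA-seq used the same livers, and p-values measure the spread between these samples.

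Peaks named are the 5 highest by fold enrichment and the 3 longest of each class and those of 2 regions. Up to 4 genes were named per list and class, with each cohesin gene, and 5 largest rises and falls of RNA among called genes with a gained promoter peak and nearest to a lost one. Alternatives were other overlap rules, promoter and motif windows, stricter peaks, equal list lengths, other scalings, DESeq2 1.42.0, the run as a term and each RNA library left out. The members and lists were chosen with earlier results of these data known.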

Additional observations from a re-analysis of the deposited data

Results flagged for a closer look

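Over 33 genes with RNA values in the 2 groups, 66 sets of libraries were searched for a library far from the others of its group by the gap to the nearest other library as a share of the group's whole range, and 9 passed Dixon's 95% critical value. Chance alone passes about 1 in 20 such sets. Values below are normalized counts. In untreated WT, Rbm24 replicate 5 had 2 against 0 in the others (gap ratio 1.000), Moxd1 replicate 1 had 491 against 101 in the next (0.798), Ly6d replicate 3 had 30 against 13 (0.773), Sgo1 replicate 3 had 8 against 3 (0.714) and Pttg1 replicate 2 had 423 against 346 (0.837). In Setd8-LKO + TCPOBOP, Moxd1 replicate 1 had 2 against 0 (1.000), Kcnk10 replicate 3 had 0 against 2 (1.000), Cyp7b1 replicate 3 had 446 against 178 (0.835) and Sgo1 replicate 4 had 39 against 64 (0.926). For Rbm24, Kcnk10 and Moxd1 in Setd8-LKO the gap was 2 normalized counts.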

How the results depend on the processing

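Of the counts the report leads with, 128 values under an alternative were within 1.5 times the reported count and 19 were not. With a reciprocal overlap of 50%, kept peaks fell from 5549 to 2038, kept peaks with a CTCF peak from 2053 to 1029 and kept peaks with a CTCF core from 2229 to 1204, while lost promoter peaks went from 854 to 3614 and gained peaks with a core from 826 to 1405. Untreated WT had 4402 promoter peaks in all, so with the reciprocal rule most of them counted as lost. The gap in kept share between promoter and distal peaks was then much smaller. Lost promoter peaks numbered 1648 with summits at most 250 bp apart, and 494 or 1864 with promoters of 500 or 2500 bp. With equal list lengths there were 9045 gained peaks, 399 gained with a core and 1398 kept with one. With no mismatch in the core there were 95 gained, 2069 lost and 766 kept peaks with it, and with the core within 50 bp of the summit 447 gained ones. Genes with a gained promoter peak and higher RNA fell from 935 to 388 with DESeq2's size factors, and genes nearest to a lost peak with higher RNA from 493 to 191, or to 310 with the nearest gene within 10 kb. Leaving out each RNA library in turn gave 794 to 987 and 347 to 384 genes with a gained promoter peak and higher or lower RNA, and 413 to 509 and 296 to 323 nearest to a lost peak. Same-numbered libraries did not deviate together (correlations of -0.01, -0.10, -0.15 and 0.06), so the numbers do not pair them. With the replicate number as a block these 4 counts were 635, 296, 326 and 253, and with the same libraries and no block, an alternative chosen after seeing the data, 882, 363, 453 and 306. Over 31 named genes and 490 alternatives, 13 calls were lost and 0 reversed. The lists carry no read depth and no value per library, so no difference between them could be set against replicate error.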
